A study of Mus musculus with 2 samples.

Results

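Edited sites outside protein-coding messages were described in cultured mouse embryonic fibroblasts, connective tissue cells grown from embryos. The members are the sites that the authors annotated as intronic, intergenic or noncoding RNA (ncRNA) in the editing list of either library, joined by genome position. They number 254 of the 689 sites listed in all, with 103 in introns, 126 between annotated genes and 25 in 6 noncoding transcripts. The remaining sites lie in 3′ untranslated regions (UTRs; 422) or in coding exons and 5′ UTRs (13). Poly(A)+ RNA was sequenced from cells of genotype Adar2+/+ (titled Adar2-WT) and of genotype Adar2-/- (titled Adar2-KO), both grown in the same serum-supplemented medium, with 1 library per genotype. The labels give no embryo, culture or clone number, no age and no deleted exon, and no difference between the libraries has a replicate check. All intervals below are Wilson 95% intervals and cover counting error only.

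Enzymes of the ADAR family convert adenosine to inosine within double-stranded RNA, and sequencing reads inosine as G. Long double strands form where inverted copies of a repeat element lie near each other in 1 transcript, and such pairs are common in introns, in the tails of transcripts and in noncoding RNA. Editing there is typically spread over many neighbouring adenosines, unlike the single defined positions edited in some coding exons. Introns are removed soon after transcription, so poly(A)+ libraries hold few reads over them, whereas exons of polyadenylated noncoding RNA are kept.

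The labels were set against the expression table, which gives RPKM values (reads scaled to gene length and library size). The read totals behind these values were estimated at 9446911 for the WT-labelled and 9546997 for the KO-labelled library. Adarb1, which encodes ADAR2, stood at 18.4 RPKM (WT-labelled) and 25.8 RPKM (KO-labelled), so the deletion is not visible in a whole-gene value and the libraries are named by their labels throughout. Adar, which encodes ADAR1, had 28.0 and 18.7 RPKM. Of 10 fibroblast markers, 9 reached 1 RPKM in a library, with Col1a2 at 48.6 and 49.5 RPKM, Vim at 82.7 and 81.0 RPKM, and Thy1 at 9.40 and 72.1 RPKM. Summed markers of other cell types were 5.36 and 7.42 RPKM for blood, 1.96 and 1.12 for epithelium and 1.61 and 0.275 for endothelium. Cd68 gave most of the blood sum, at 5.15 and 7.40 RPKM, with Ptprc at 0.0747 and 0. The epithelial markers differed in direction. Cdh1 had 1.799 and 0.0712 RPKM and Epcam 0.103 and 0, whereas Krt8 had 0.0586 and 1.04 RPKM. Of 3 neuronal markers Rbfox3 and Snap25 were listed at 0 and Tubb3 had 20.1 and 15.7 RPKM. In bulk RNA fewer cells of a type and less RNA per cell cannot be told apart. Whether these differences between the cultures bear on the listed sites was not tested.

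The 3 classes were compared by which library listed them. The WT-labelled list held 80 intronic, 123 intergenic and 25 ncRNA sites, and the KO-labelled list held 29, 15 and 8. Of the WT-labelled sites, 7.50% of the intronic (6 of 80, interval 3.48 to 15.4), 9.76% of the intergenic (12 of 123, 5.67 to 16.3) and 32% of the ncRNA sites (8 of 25, 17.2 to 51.6) were also in the KO-labelled list, beside 11.1% of the 3′ UTR sites (46 of 415). Over all regions the share was 11.5% (75 of 654), which lies inside the intronic and intergenic intervals. Without the transcript uc012aji.1, 14.3% of the remaining 14 ncRNA sites were in both lists. Seen from the KO-labelled list, the shares listed in both were 20.7% of intronic (6 of 29, 9.85 to 38.4), 80.0% of intergenic (12 of 15), 8 of 8 ncRNA and 86.8% of 3′ UTR sites (46 of 53). Intronic sites thus stood apart in the KO-labelled list: 23 of its 29 intronic sites were absent from the WT-labelled list, against 3 of 15 intergenic sites and 7 of 53 in 3′ UTRs. Over all regions, introns included, 35 of its 110 sites (31.8%) were absent there. Neighbouring sites share reads and transcripts and are not independent, so these intervals are too narrow, and no difference between classes was tested. A site missing from a list has no depth there and is not thereby shown to be unedited.

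**Figure D1:**
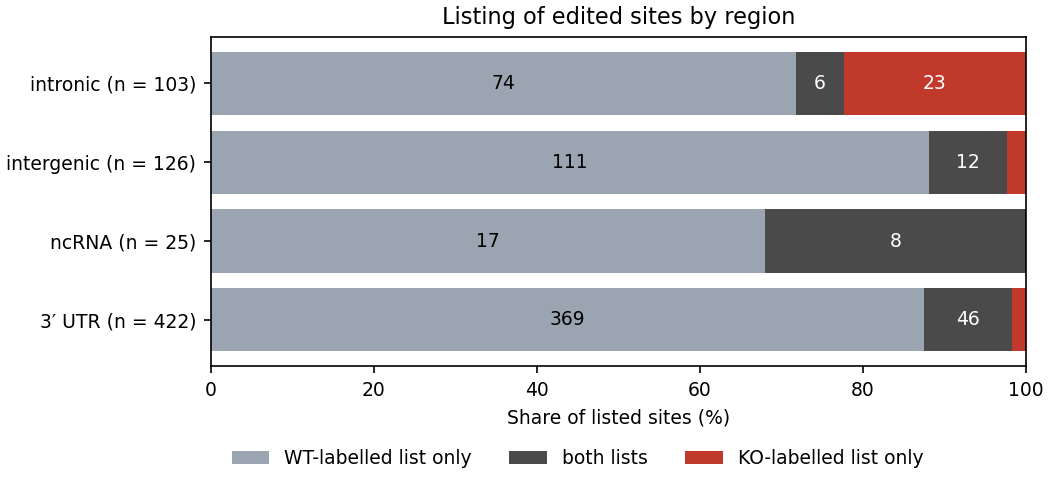
Share of the listed sites of each region (horizontal axis, percent of the union of both lists) found in the WT-labelled list only, in both lists or in the KO-labelled list only, with counts of sites printed in the larger segments. The intronic bar has 23 sites listed for the KO-labelled library only, while the ncRNA bar has none.

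Members were covered by fewer reads than 3′ UTR sites, except in ncRNA of the KO-labelled library. In the WT-labelled library the median number of reads over a site was 7 in introns (range 2 to 31), 9 between genes (2 to 45) and 13 in ncRNA (2 to 29), against 20 in 3′ UTRs (3 to 84). At least 10 reads covered 33.8% of intronic sites (27 of 80), 48.0% of intergenic sites (59 of 123) and 64.0% of ncRNA sites (16 of 25), against 79.3% in 3′ UTRs. In the KO-labelled library the medians were 6, 7 and 30.5 reads, against 23 in 3′ UTRs. There 5 of 29 intronic sites had 10 reads or more. The ncRNA medians rest on the transcript uc012aji.1, without which they were 7 reads (14 sites) in the WT-labelled and 11.5 reads (2 sites) in the KO-labelled library. Every listed site has 2 edited reads or more, so a shallow site can enter a list only at a high level. Exactly 2 edited reads supported 53.8% of intronic sites (43 of 80), 38.2% of intergenic and 20% of ncRNA sites in the WT-labelled library, against 18.8% in 3′ UTRs.

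Editing level is the percent of reads with the edited base. Over all WT-labelled sites the median level was 40.0% in introns, 50% between genes and 61.9% in ncRNA, all above the 35.7% of 3′ UTR sites. Among sites with at least 10 reads the medians were 20%, 30.0% and 47.6%, and the 3′ UTR sites stood at 31.2%, so that introns and intergenic sites were then below them. Within introns the median level was 100% at 2 to 4 reads (19 sites), 41.4% at 5 to 9 reads (34 sites), 20% at 10 to 19 reads (22 sites) and 18.2% at 20 reads or more (5 sites). Over the same bins the medians were 66.7%, 44.4%, 26.7% and 33.5% between genes and 100%, 69.0%, 84.6% and 47.6% in ncRNA, so that neither fell at every step. No intronic site with at least 10 reads exceeded 50% in the WT-labelled library, whereas intergenic and ncRNA sites of that depth reached 100%. Sites at 100% were 28 of the 228 WT-labelled members, and 23 of those 28 had fewer than 5 reads. Pooled over reads, the WT-labelled levels were 33.3% in introns (232 of 696 reads, interval 29.9 to 36.9), 42.7% between genes (592 of 1386, 40.1 to 45.3) and 49.2% in ncRNA (174 of 354, 44.0 to 54.3). The KO-labelled levels were 43.1% in introns (84 of 195 reads), 52.0% between genes (89 of 171) and 13.0% in ncRNA (29 of 223). In 3′ UTRs the pooled levels were 33.8% (WT-labelled) and 15.2% (KO-labelled). The lists hold different sets of sites, so these values do not compare the same positions.

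**Figure D2:**
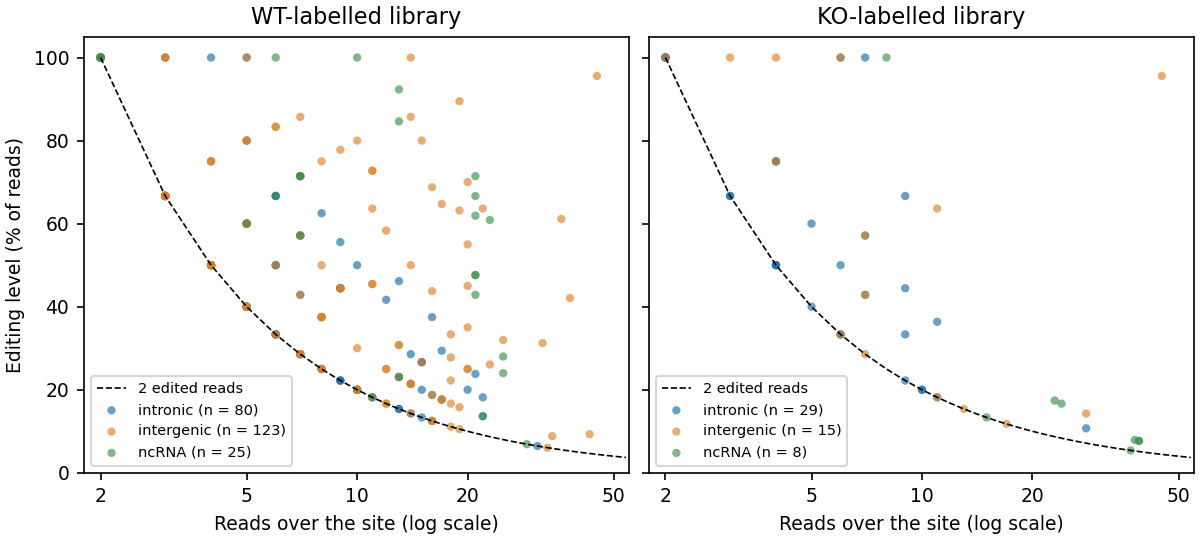
Editing level (vertical axis, percent of reads) against reads over the site (horizontal axis, log scale) for each member in the WT-labelled and KO-labelled libraries, coloured by class; the dashed line is the level that 2 edited reads give, below which no site is listed, and points of equal value overlap. Intronic points lie mostly at low depth close to the line, and the ncRNA points of the KO-labelled library lie low at 15 to 39 reads except 1 site with 8 reads at 100%.

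Repeats held most members. In the WT-labelled library 85.0% of intronic sites (68 of 80), 84.6% of intergenic sites (104 of 123) and 24 of 25 ncRNA sites were flagged as repetitive, against 79.8% of 3′ UTR sites (331 of 415). In the KO-labelled library the counts were 25 of 29, 12 of 15 and 7 of 8, against 39 of 53. Intronic sites outside repeats had a median level of 23.6% (12 sites), beside 42.3% in repeats (68 sites), and 10 of those 12 rested on exactly 2 edited reads. Between genes the order over all sites was the other way, with 66.7% at 19 sites outside repeats and 50% at 104 sites within them. Among intergenic sites with at least 10 reads it was not, with 26.7% outside repeats (7 sites) and 30.8% within them (52 sites). The intronic medians at that depth were 15.4% outside repeats (5 sites) and 20% within them (22 sites). A matching human position was recorded for 2 of the 228 WT-labelled members, against 6 of the 415 3′ UTR sites.

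Grouping of sites, a usual mark of editing in long double strands, was most complete in ncRNA. A site was called grouped when another listed site of the same library and strand lay within 100 bases. In the WT-labelled library this held for 43.8% of intronic sites (35 of 80), 61.0% of intergenic sites (75 of 123), 96.0% of ncRNA sites (24 of 25) and 73.5% of 3′ UTR sites (305 of 415). The 25 ncRNA sites came from 6 transcripts, with 11 of them in uc012aji.1, and taken alone formed only 8 groups or single sites. Grouped sites lay close together, with a median gap to the nearest site of 8 bases in introns, 9 between genes and 5 in ncRNA. In the KO-labelled library, with its shorter list, 6 of 29 intronic, 2 of 15 intergenic and 6 of 8 ncRNA sites were grouped. Over both lists joined, the intergenic sites formed 81 groups or single sites on the mm9 genome, of which 51 were single, and the purely intronic ones formed 79, of which 66 were single. Levels could differ widely within a short stretch, as on chromosome 6, where the intergenic positions 72382360 and 72382361 were edited in 14 and 12 of 14 reads and position 72382382 in 2 of 18 WT-labelled reads, all listed there only.

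Sites in both lists allow the level to be compared. There were 26 such members. In the KO-labelled library 18 of them stood lower, 3 stood higher and 5 had the same level. Fisher's exact test (two-sided) on edited and unedited reads was run at all 55 shared sites of every region with at least 10 reads in both libraries, with Benjamini-Hochberg adjustment over the 55. It compares the 2 libraries, not the genotypes. Of these 55 sites 60.0% were called lower in the KO-labelled library at an adjusted p under 0.05. Of the 12 tested members 7 (58.3%) were called lower, a share near that background. By Fisher's exact test 0 of the 55 sites were called higher, also at an unadjusted p under 0.05, and Boschloo's exact test gave the members the same count of 7 lower. With a minimum of 5 reads, 68 sites entered the test, 34 (50%) were called lower and 1 higher. Of the 19 members among them 8 were called lower and 1, an intergenic site, higher. In the test at 10 reads, the called members were 6 sites of a single ncRNA, uc012aji.1, and 1 intergenic site. In that test 0 of 1 intronic and 1 of 5 intergenic sites passed. At an unadjusted p under 0.05, 7 of the 12 members were lower, beside 36 of the 55 sites of every region. Without uc012aji.1, an alternative chosen after the values were seen, 1 of 6 tested members passed. The matching share over all regions was not computed.

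**Figure D3:**
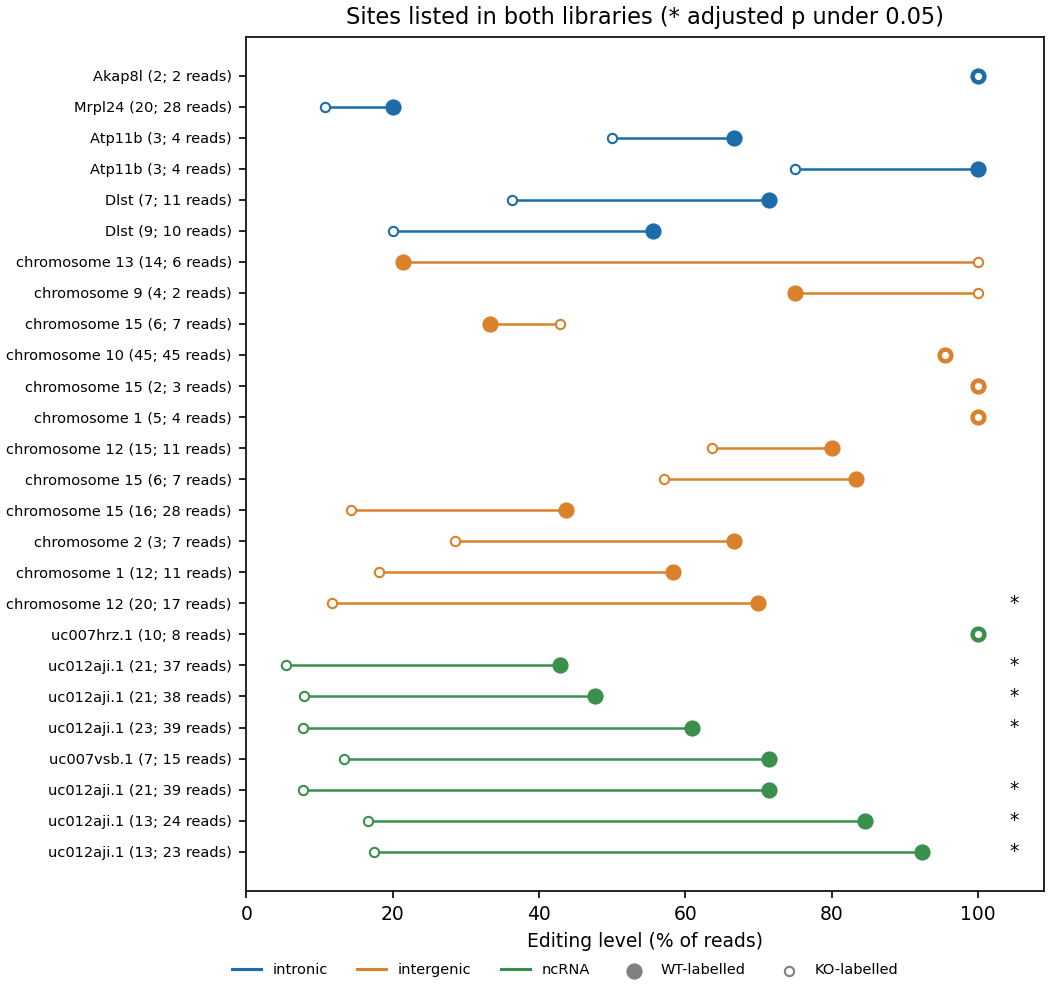
Editing level (horizontal axis, percent of reads) at the 26 members listed in both libraries, 1 row per site with the gene or chromosome and the reads in the WT-labelled and then the KO-labelled library; filled points are WT-labelled, open points KO-labelled, and an asterisk marks an adjusted p under 0.05 in Fisher's exact test. All 7 asterisks belong to sites whose open point lies to the left, and 5 rows have both points at the same level.

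The noncoding transcript uc012aji.1 on the plus strand of chromosome 17 (mm9) held 11 of the 25 ncRNA sites, all in annotated repeats. They formed 1 group of 8 sites within 47 bases (6122608 to 6122654) and 1 group of 3 sites within 9 bases (6123078 to 6123086). The KO-labelled library had more reads here, 37 to 39 in the first group against 21 to 23, and 23 to 24 in the second against 13. Levels of the WT-labelled library ranged from 13.6% to 71.4% in the first group and from 23.1% to 92.3% in the second. The 6 shared sites of the KO-labelled library lay between 5.41% and 17.4%, below all 6 of the WT-labelled levels, which began at 42.9%. Pooled over these 6 sites, 63.4% of WT-labelled reads (71 of 112, interval 54.2 to 71.7) and 9.50% of KO-labelled reads (19 of 200, 6.17 to 14.4) were edited. A read counts at each site it covers, so these intervals are too narrow even for counting error.

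Site by site, the differences in uc012aji.1 passed the test at every shared position. At 6123078 the edited base was in 12 of 13 reads (92.3%) and in 4 of 23 reads (17.4%), the WT-labelled library first here and in what follows (adjusted p = 6.77e-05, Fisher's exact test). At 6123082 the counts were 11 of 13 and 4 of 24 reads, with an adjusted p of 2.79e-04 in Fisher's exact test. At 6122608 they were 15 of 21 and 3 of 39 reads, and Fisher's exact test gave an adjusted p of 3.04e-06. These 3 sites had the largest differences of the 6, from -63.7 to -74.9 percentage points. The other shared positions were 6122620 (9 of 21 and 2 of 37 reads, adjusted p = 0.00194), 6122631 (10 of 21 and 3 of 38, adjusted p = 0.00176) and 6122636 (14 of 23 and 3 of 39, adjusted p = 4.86e-05), by the same exact test.

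The other 5 sites of uc012aji.1 were listed for the WT-labelled library only, some of them at levels as high as those of the shared sites. Position 6122654 was edited in 14 of 21 reads (66.7%), 6122627 in 13 of 21 (61.9%), 6122653 in 10 of 21 (47.6%), 6123086 in 3 of 13 (23.1%) and 6122617 in 3 of 22 (13.6%). Their depth in the KO-labelled library is not given. The nearest sites listed there, 3 to 18 bases away, had 24 to 39 reads, so that 1 read would be 2.56% to 4.17% of the reads at those neighbours. Levels of close sites could differ within a library, as at 6122608 and 6122617, 9 bases apart, with 71.4% and 13.6% of WT-labelled reads.

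**Figure D4:**
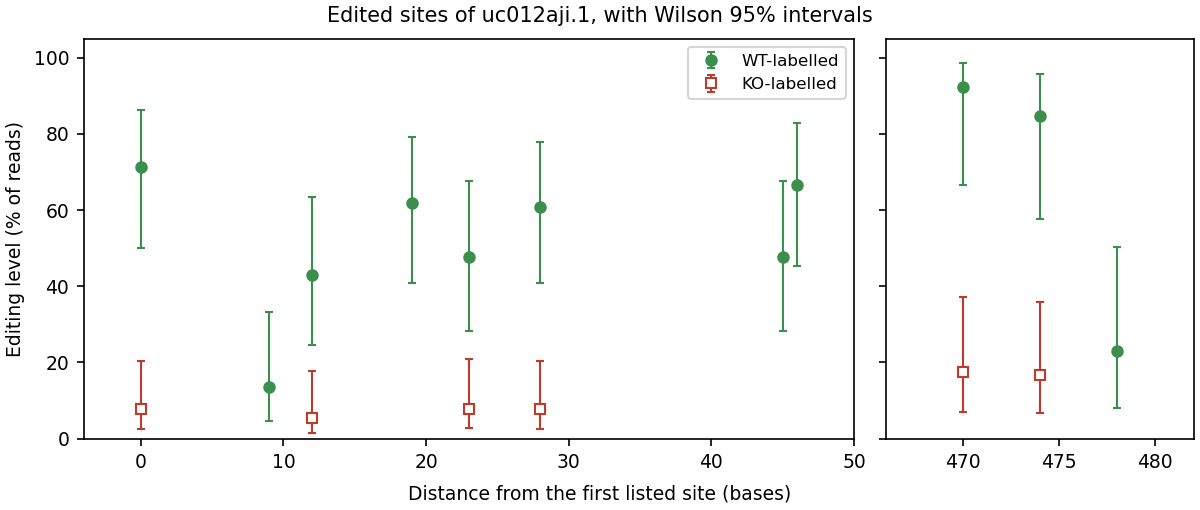
Editing level (vertical axis, percent of reads, with Wilson 95% intervals) of the 11 sites of uc012aji.1 against the distance from its first listed site (horizontal axis, bases, shown in 2 stretches of different scale); circles are WT-labelled and squares KO-labelled. At each of the 6 positions listed in both libraries the intervals of the 2 libraries do not overlap.

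Of the remaining noncoding transcripts, 2 had a site in both lists. In uc007vsb.1 on chromosome 15, 6 sites between 55086851 and 55087197 had levels from 18.2% to 71.4% at 5 to 11 reads in the WT-labelled library. Of these, 55087127 was also listed for the KO-labelled library, at 5 of 7 reads (71.4%, interval 35.9 to 91.8) and 2 of 15 reads (13.3%, 3.74 to 37.9). It was too shallow for the test at 10 reads and was called lower with a minimum of 5 (adjusted p = 0.0288, Fisher's exact test). The annotated noncoding gene 4933404O12Rik on chromosome 5 was edited in 7 of 25 reads at 137410856, 6 of 25 at 137410858 and 2 of 29 at 137410812, all 3 listed for the WT-labelled library only. Its expression was 21.8 and 19.5 RPKM, and it was the 1 of the 6 noncoding transcripts that the expression table holds. In uc009jxt.1 on chromosome 7 each of 3 sites (135127233 to 135127248) rested on 2 edited reads of 2. The site of uc007leh.1 on chromosome 11 (97506178, 6 of 6 reads) lay 8 bases from an intronic site of uc011ydt.1 (97506170, 5 of 5 reads). The 4 sites of these neighbouring annotations (from 97505927) were all at 100%, at 2 to 6 reads. The last 3 of them (97506099 to 97506178) formed the 1 group that joined members of different classes.

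Between annotated genes, the group with most sites lay on the plus strand of chromosome 12, with 7 sites within 86 bases (72096116 to 72096201). It began 493 bases beyond the nearest listed 3′ UTR site of Psma3, which encodes a proteasome subunit, on the same strand. Levels in the WT-labelled library ran from 10.5% to 70.0% at 13 to 20 reads. Position 72096197 had 14 of 20 reads edited (70.0%, interval 48.1 to 85.5) and 2 of 17 (11.8%, 3.29 to 34.3), and was the intergenic site called lower there (adjusted p = 0.00156, Fisher's exact test). Its neighbours at 72096198 (7 of 20 reads) and 72096201 (9 of 20 reads) were listed for the WT-labelled library only. Psma3 itself had 14.2 and 13.3 RPKM.

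Such nearness to a listed 3′ UTR site was uncommon. Of the 126 intergenic sites, 10 (7.94%) lay within 5000 bases of a listed 3′ UTR site on the same strand, and all 10 lay downstream of it in the direction of transcription. Besides the 7 beside Psma3, 2 lay 581 and 628 bases beyond a site of Qpctl on chromosome 7 (19725157 and 19725110), a glutaminyl cyclase gene, and 1 lay 2405 bases beyond a site of Tpd52l2 on chromosome 2 (181252516). That last site was edited in 17 of 19 reads (89.5%, interval 68.6 to 97.1), the highest level among the intergenic sites with at least 15 reads that only the WT-labelled list holds. The Qpctl pair stood lower, at 4 of 13 and 3 of 17 reads.

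The other tested intergenic sites did not pass. Position 158358162 on chromosome 1 had 7 of 12 and 2 of 11 reads edited (adjusted p = 0.114, Fisher's exact test). Position 81286590 on chromosome 15 had 7 of 16 and 4 of 28 (adjusted p = 0.0896, Fisher's exact test). Position 114196453 on chromosome 12, outside repeats, had 12 of 15 (80.0%, interval 54.8 to 93.0) and 7 of 11 (63.6%, 35.4 to 84.8; adjusted p = 0.456, Fisher's exact test). It closes a group of 4 sites outside repeats (from 114196386) whose WT-labelled levels ran from 25% to 80.0%, the other 3 not listed for the KO-labelled library. At 10 to 28 reads a site, only a large difference can pass.

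Among intergenic sites listed for the WT-labelled library only, the deepest were 3 on the minus strand of chromosome 13. They were edited in 16 of 38 reads at 64391488, 22 of 36 at 64391618 and 4 of 43 at 64391666. High levels at 15 reads or more were also seen on chromosome 14 (8998447; 11 of 16 reads), chromosome 12 (55773272; 11 of 17, and 11 of 20 at 55773344), chromosome 8 (113498485; 14 of 22) and chromosome 10 (76018335; 12 of 19). On chromosome 18, 4 sites outside repeats (77213593 to 77213694) had 66.7% to 100% of only 2 or 3 reads. The 3 intergenic sites of the KO-labelled list alone were shallow, with 2 of 13 reads on chromosome 10 (4535785), 2 of 6 on chromosome 5 (29779671) and 3 of 4 on chromosome 9 (4294268).

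Intronic sites lay in 69 genes or transcripts, of which 52 had 1 listed site and 8 had 3 or more. The largest number was in Dlst, which encodes the E2 subunit of the 2-oxoglutarate dehydrogenase complex, with 7 sites within 80 bases on chromosome 12 (86465349 to 86465428). The WT-labelled library had 7 to 10 reads there and levels from 20% to 71.4%. Positions 86465358 (5 of 7 and 4 of 11 reads) and 86465368 (5 of 9 and 2 of 10 reads) were in both lists, with differences of -35.1 and -35.6 percentage points (KO-labelled minus WT-labelled) but with too few reads for the test at 10 reads. With a minimum of 5 neither passed (adjusted p = 0.414 and 0.231, Fisher's exact test). Dlst had 39.5 and 36.3 RPKM.

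Dlg4, the gene of the scaffold protein PSD-95, had 6 intronic sites on chromosome 11. The 5 of the WT-labelled list (69846165 to 69850690) had 22.2% to 60.0% of 5 to 9 reads, and the single site of the KO-labelled list (69845577; 2 of 9 reads) was a different position. In Ppapdc1b, of the lipid phosphatase family, 4 sites within 37 bases on chromosome 8 (26833669 to 26833705) had 13.3% to 28.6% of 13 to 15 reads. Fstl1, which encodes a secreted glycoprotein of fibroblasts, had 3 sites outside repeats on chromosome 16 (37832987 to 37833015), at 12.5% to 18.8% of 13 to 16 reads, and 1 more in a repeat (37833525; 3 of 8 reads). Ifrd1, a transcriptional co-regulator gene, had 3 sites outside repeats on chromosome 12 (40937115 to 40937139), each with 2 edited reads of 8 or 9. None of the sites of Ppapdc1b, Fstl1 and Ifrd1 was in the KO-labelled list.

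The best covered intronic sites had low levels. In the WT-labelled library Flna, an actin crosslinker gene, had 2 of 31 reads edited on chromosome X (71471989; 6.45%), uc008alw.1 had 4 of 22 on chromosome 17 (13212876) and uc008ebf.1 had 3 of 22 on chromosome 18 (10813841). The highest levels at 15 reads or more among intronic sites of that list alone were in Fnbp1, a membrane-bending protein gene on chromosome 2 (30886463; 6 of 16 reads, 37.5%, interval 18.5 to 61.4, and 30886452; 5 of 17). Lztr1 on chromosome 16 (17518050) had 4 of 15 reads, and Zfp809, which encodes a repressor of retroviral sequences, had 5 of 21 on chromosome 9 (22045677). The tested intronic site, in the mitochondrial ribosomal protein gene Mrpl24 on chromosome 3 (87725373), had 4 of 20 reads edited (20%, interval 8.07 to 41.6) and 3 of 28 (10.7%, 3.71 to 27.2; adjusted p = 0.468, Fisher's exact test). In Atp11b, a phospholipid flippase gene on chromosome 3, adjacent positions 35706977 and 35706978 had 2 and 3 edited reads of 3 (WT-labelled) and 2 and 3 of 4 (KO-labelled).

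The 23 intronic sites of the KO-labelled list alone lay in 20 genes, and 2 of those genes, Dlg4 and Ccbl1, had a WT-labelled site of any region. Their median depth was 6 reads (range 2 to 11) and their median level 50% (range 18.2% to 100%), beside 7 reads and 40.0% for the 74 intronic sites of the WT-labelled list alone. Repeats held 20 of the 23. The deepest were in the mRNA-processing factor gene Thrap3 on chromosome 4 (125847111; 2 of 11 reads) and S100pbp on chromosome 4 (128858471; 2 of 10), followed at 9 reads by the tubulin chaperone gene Tbce on chromosome 13 (14103153; 6 of 9), Tmem161a on chromosome 8 (72703626; 4 of 9) and the F-box gene Btrc on chromosome 19 (45601276; 3 of 9). Slc35a3, a Golgi nucleotide sugar transporter gene, had 3 such sites on chromosome 3 (116379777 to 116380504), at 50% to 75% of 4 or 5 reads. No site listed for the WT-labelled library lay within 25 bases of any of the 26 members of the KO-labelled list alone. At the 6 shared intronic sites the KO-labelled library had as many reads or more at each, with 59 in all against 44. Whether read depth in introns decides which of these sites are listed was not tested.

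Expression of the genes with intronic sites was close in both libraries. Of the 69, 58 were in the expression table under the same symbol, and all 58 reached 1 RPKM in a library. On the scale of RPKM + 1, 57 lay within 2-fold, 0 stood 2-fold or more above and 1 stood 2-fold or more below its WT-labelled value in the KO-labelled library. Of the 13867 genes compared in all, 4.42% were higher and 7.46% lower by that measure. Those genes start at 1 RPKM, whereas 57 of the 58 reached 5 RPKM in a library. The sets were not matched for expression. The highest value of any of the 24015 genes in the table was 107 RPKM (WT-labelled) and 124 RPKM (KO-labelled), a narrow range at the top, so differences between abundant genes may be understated; the step that sets this range is not stated. The gene 2-fold or more below was Zfp791, a zinc finger gene, at 3.04 and 0.269 RPKM. Its site on chromosome 8 (87635762) had 2 of 4 reads and was listed for the WT-labelled library only. The 16 compared genes whose sites were in the KO-labelled list alone had a median log2 ratio of 0.12 (range -0.19 to 0.49), with medians of 26.5 and 30.1 RPKM. For the 36 of the WT-labelled list alone the medians were 29.7 and 30.1 RPKM. Across genes, the reads over the deepest intronic site and the RPKM of the gene had a Spearman correlation of 0.19 in the WT-labelled library (42 genes) and 0.01 in the KO-labelled library (22 genes), with both measures taken from the same library.

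**Figure D5:**
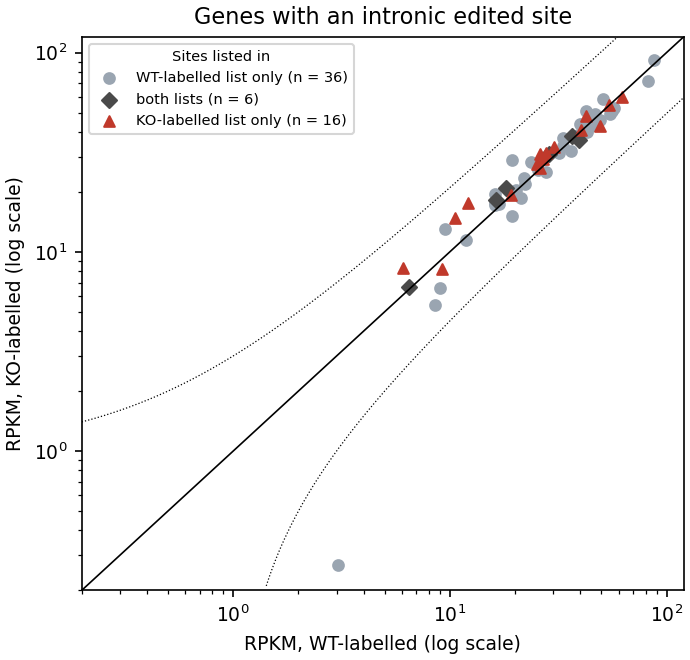
RPKM in the KO-labelled library (vertical axis, log scale) against the WT-labelled library (horizontal axis, log scale) for the 58 genes with an intronic edited site, marked by the list that holds their sites; the solid line is equality and the dotted lines 2-fold on the scale of RPKM + 1. All but Zfp791 lie between the dotted lines.

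At 5 shared members each library had a level of at least 95%, which no shared site of another region reached. They were an intergenic site on chromosome 10 (11211930), with 43 of 45 reads in each library (95.6%, interval 85.2 to 98.8), 1 in uc007hrz.1 on chromosome 11 (3050403; 10 of 10 and 8 of 8 reads), intergenic sites on chromosome 1 (87761120; 5 of 5 and 4 of 4) and chromosome 15 (34199524; 2 of 2 and 3 of 3), and an intronic site of Akap8l on chromosome 17 (32473150; 2 of 2 in each). Of the 5, 3 were outside repeats. Whether such positions are edited or differ in the genome of these cells was not tested. Leaving out shared sites that reached 95% in any library, intergenic reads pooled to 62.8% (49 of 78 reads) and 27.3% (24 of 88), against 70.9% and 55.4% with them.

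The 3 shared members that stood higher in the KO-labelled library were intergenic and had under 10 reads in a library. On chromosome 13 (62915954), outside repeats, 3 of 14 reads (21.4%, interval 7.57 to 47.6) and 6 of 6 reads (100%, 61.0 to 100) were edited, so that the intervals do not overlap. Once the minimum was lowered to 5 reads, Fisher's exact test called this site higher, with an adjusted p of 0.00526. On chromosome 9 (35027619) the counts were 3 of 4 and 2 of 2 reads. On chromosome 15 the adjacent positions 99559811 (5 of 6 and 4 of 7 reads) and 99559812 (2 of 6 and 3 of 7 reads) differed in opposite directions within counting error.

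A list of nuclear RNA-retention factors, double-stranded RNA-binding proteins and regulators of ADAR proteins was read from the expression table. Of its 19 genes 0 were 2-fold apart, beside 4.42% higher and 7.46% lower of the 13867 genes compared in all. With so few genes a count of 0 is not far from those shares. The median log2 ratio was 0.04 beside 0.01 over all compared genes. The paraspeckle RNA Neat1 had 70.4 and 58.4 RPKM and the nuclear RNA Malat1 had 46.4 and 60.5 RPKM. Among the protein genes, Nono stood at 49.9 and 52.4 RPKM, Matr3 at 37.9 and 38.8, and Dhx9, a helicase that unwinds double-stranded RNA, at 55.8 and 59.6 RPKM. Of the 6 editing and tRNA deaminase genes 5 were compared and 0 were 2-fold apart, too few genes to set against the same shares.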

How the data were processed

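Per the labels' protocols, RNA of cultured cells was extracted with a column kit and libraries were built with TruSeq or Nextera reagents. Tools listed in the submitters' processing notes are STAR 2.4.0d and SAMtools, with the mm9 build. For the site caller, its filters and strand use, nothing is stated: not given in the sources used here. The deposited editing files give counts of reads over each site and of reads with the mismatch, and the level as a fraction, which equals their ratio after rounding. The deposited expression table holds RPKM, a log2 fold change and an empirical FDR (a q-value, 1 in every row, not used), per the file headers. The read totals behind RPKM were estimated from the authors' log2 fold change of genes at 0 in 1 library. Genes were kept only where this gave a nearly whole number of reads. Of the totals that then gave nearly whole gene lengths, the largest was taken.

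Levels are percent of reads with Wilson intervals; as no molecular identifiers are named, reads need not be independent molecules. Sites present in both lists, each at 10 reads or more, were compared by Fisher's exact test across all regions (SciPy 1.17.1), tested on simulated data. Genes of at least 1 RPKM in a library were compared as log2((KO + 1)/(WT + 1)), which understates low genes. Named sites are every tested member, per class the 5 highest levels at 15 reads or more and the 3 deepest of the WT-labelled list alone, the 5 deepest of the KO-labelled list alone, and the 3 groups with most sites; 1 site that the rule names is not reported here, and sites named beyond it were chosen after their values were seen. The members, lists and rules were chosen with earlier results of these data known. Sequence around the sites was not analysed here.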

Additional observations from a re-analysis of the deposited data

How the results depend on the processing

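No paired analysis was possible because each genotype had 1 library, so no result has a replicate check. Of 168 values under other settings, 139 kept their call or size and 29 moved. Reversals of direction and changes in the order of the classes were not scored. With a minimum of 5 reads 8 members (19 tested) were called lower and 1 higher. With a minimum of 20 reads, 0 intergenic sites (1 tested) and 4 members (6 tested) were called lower. The share called over all regions was not computed at 20 reads or without uc012aji.1, so these counts have no background beside them. Leaving out uc012aji.1, chosen after seeing the data, left 1 called member, pooled shared levels of 88.2% (WT-labelled) and 43.5% (KO-labelled) for ncRNA (2 sites) and of 47.0% for members (KO-labelled), and put 14.3% of WT-labelled ncRNA sites in both lists. As means of site levels, shared intronic sites had 68.9% and 48.7%, and the KO-labelled ncRNA sites and members 22.0% and 46.2%. At 10 reads or more in both libraries the shared intronic level was 20% and 10.7% (1 site) and the KO-labelled level of members 23.5%. Leaving out shared sites at 95% or more gave 62.8% and 27.3% between genes and 59.7% and 15.7% for members. Among sites with at least 10 reads, median levels were 20% and 20% in introns and 30% and 16.8% between genes; 55.6% and 40% of intronic and 0% of KO-labelled intergenic sites were grouped; and 100% of KO-labelled ncRNA sites were in repeats. With 1 site per group the WT-labelled ncRNA median level was 76.6%. At 20 reads or more 20% of WT-labelled intronic sites (5 sites) and 12.5% of intergenic sites (16 sites) were in both lists. That order is the other way over all sites, at 7.50% and 9.76%. At 5 RPKM or more, 0 intron host genes were 2-fold lower. In each case the cause was not tested, beyond the smaller number of sites or genes used. Most listed members have under 10 reads in a library, which limits the test.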
